A study of Mus musculus with 6 samples.

Results

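Transcripts of 40 genes of the fibroblast matrix were compared between pancreatic islets of mice whose genotype deletes Klf4 in alpha cells and islets of control mice. The genes were taken from a fixed list of non-collagen matrix proteins, matrix enzymes and fibroblast genes, and all 40 were found by symbol among the 55536 genes of the deposited count table. Islets were isolated from mice that the labels call C57B1/6J, and whole islet RNA was sequenced as polyA RNA. The control group (3 libraries) had the genotype Klf4+/+;Gcg-iCre and the knockout group (3 libraries, Klf4-alphaKO) the genotype Klf4fl/fl;Gcg-iCre. Mice of both groups thus carried the Gcg-iCre driver, which makes Cre recombinase from the glucagon gene and so acts in alpha cells. Age and sex are not given in the labels, and nothing in them says whether a library came from 1 mouse or a pool, so p-values measure the spread between these libraries.

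The extracellular matrix of the islet is laid down mainly by fibroblasts, stellate cells, pericytes and endothelial cells, not by the hormone cells. Collagen fibrils are coated and spaced by small leucine-rich proteoglycans, elastic fibres are built on fibrillin microfibrils, and enzymes of the lysyl oxidase, matrix metalloproteinase and TIMP families cross-link, cut and protect the network. Pancreatic stellate cells are resident fibroblast-like cells known for storing vitamin A at rest and for making matrix after injury. Several of the genes are not confined to fibroblasts: Sparc, Nid1, Timp3 and Vim are also made by vascular cells.

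The libraries held 101277200 to 110243918 counts, and no count of a listed gene was below 54. Most low counts were even numbers, so a count may stand for 1 mate of a read pair and not for a whole fragment, which the sources used here do not settle. Klf4 itself did not separate the groups, with 2015 to 3148 normalized counts (counts divided by the DESeq2 size factor of the library) in controls and 2277 to 2540.1 in knockouts (DESeq2 adjusted p = 0.774), and gene counts do not show which exons remained. The defining fibroblast genes Pdgfra, Dcn, Lum, Pdgfrb and Thy1 were detected in all 6 libraries, at 585 normalized counts or more. Sex-linked transcripts did separate the groups. Ddx3y, on the Y chromosome, had 0 counts in every control and 5476 to 6633 in the knockouts, while Xist had 73469 to 108994 counts in controls and 12 to 32 in knockouts. Genotype and the sex these transcripts mark therefore cannot be told apart in any difference below. The listed genes together took 0.149% to 0.172% of all counts in controls and 0.189% to 0.192% in knockouts, and these ranges did not overlap.

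Of the 40 genes, 6 rose in the knockout libraries and 0 fell (DESeq2, Benjamini-Hochberg adjusted p under 0.05 over all genes tested). They were Pdgfra, Fbln1, Dcn, Sparc, Fbn2 and Fmod. The count was 4 without knockout replicate 1, with 153 genes past over the table, and 11 without control replicate 2, with 332 over the table. Over all genes tested, 389 of 17797 passed (2.19%), of which 272 rose (1.53%) and 117 fell (0.657%). At an unadjusted p under 0.05 in DESeq2, 17 of the 40 genes passed, all of them higher, against 11.5% of all genes in either direction. The edgeR quasi-likelihood test with the same adjustment called 1 of the 40, Pdgfra, against 0.115% of all genes, and again had 17 of the 40 at an unadjusted p under 0.05, against 9.48%.

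The median log2 fold change of the 40 genes was 0.21, against -0.0061 over all genes tested. Above 0 were 33 of the 40 (82.5%), against 48.4% of all genes tested. Without control replicate 2 the median was 0.33 and 36 were above 0, and without control replicate 3 it was 0.19 and 29 were above 0. In 19 genes every knockout library lay above every control, and in 2 genes, Ogn and Pi16, every knockout lay below. Such groups without overlap were found for 9.06% of all genes in the upward and 8.23% in the downward direction. The mean log2(normalized count + 1) of the 40 genes was 10.70, 10.81 and 10.53 in control replicates 1 to 3 and 10.94, 10.92 and 10.94 in knockout replicates 1 to 3. Knockouts lay close together and controls further apart, with control replicate 3 the lowest of the controls for 25 of the 40 genes, against 34.8% of the 15811 genes with a mean normalized count of 50 or more. The 7 acinar markers, none past the threshold, also separated the groups, at a summed level of 532709 to 1074810 normalized counts in controls and 1352290 to 1915710 in knockouts, and their part in the change of the matrix genes was not tested. In whole islet RNA, more fibroblasts and more transcript per fibroblast cannot be told apart.

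**Figure D1:**
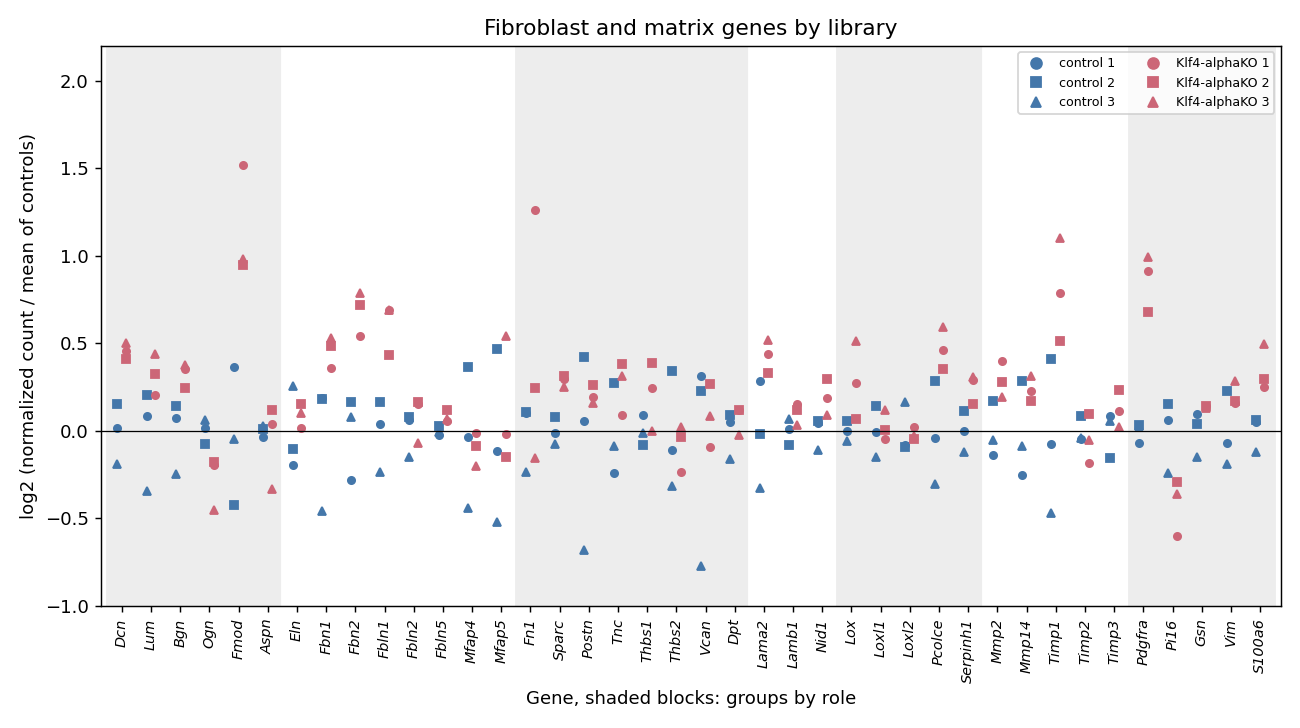
Each point is 1 library, plotted as log2 of its normalized count over the mean of the 3 controls, for the 40 genes in shaded blocks by role from the proteoglycans on the left to the fibroblast receptor and cytoskeletal genes on the right. Circles, squares and triangles are replicates 1, 2 and 3. Most red knockout points lie above the zero line, and Fmod, Timp1, Pdgfra and the single high Fn1 value of knockout replicate 1 stand furthest up.

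Levels between genes were compared per length, in TPM, that is counts divided by the merged exon length of the gene and scaled to the same total in every library. They spanned more than 2 orders of magnitude. Sparc, a collagen-binding glycoprotein, was the most abundant, at 204 ± 12.9 TPM in controls and 249 ± 2.35 TPM in knockouts (SD, n = 3 each). Gsn, which severs actin filaments, followed at 152 ± 19.2 TPM in controls, and the protease inhibitor gene Timp3 at 62.1 ± 7.91 TPM. Dcn, at 19.2 ± 2.36 TPM, lay in the upper part of the range, while Pdgfra, at 1.41 ± 0.0142 TPM, and Fmod, at 0.617 ± 0.2 TPM, lay near its lower end. The genes that rose were thus spread from the highest to the lowest level. Fbn2, at 0.561 ± 0.0629 TPM in controls, was the least abundant of the 40.

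**Figure D2:**
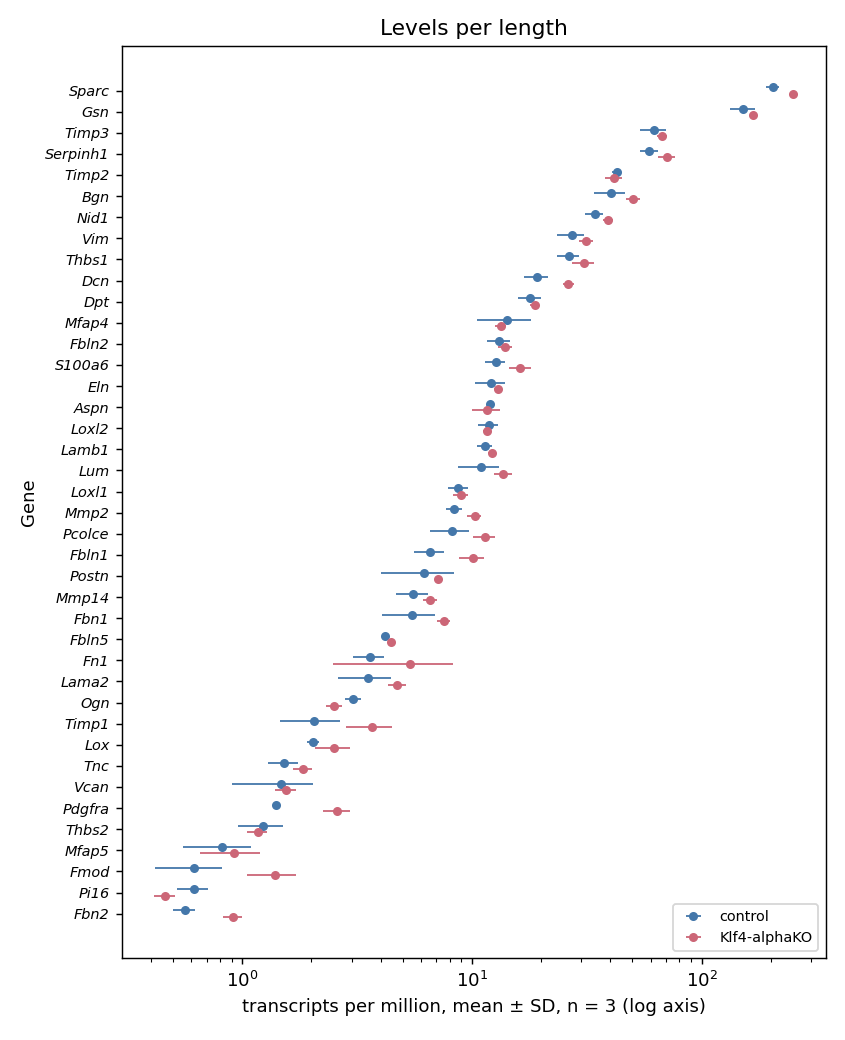
Level of each of the 40 genes in TPM on a log axis, ordered by the control mean, with points for the mean and bars for the SD of 3 libraries per group (blue control, red Klf4-alphaKO). Sparc lies at the top, at 204 and 249 TPM, and Fbn2 at the bottom, at 0.561 and 0.91 TPM.

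Pdgfra (ENSMUSG00000029231, GRCm38 chromosome 5, 75152292 to 75198215, plus strand) encodes the receptor for platelet-derived growth factors that marks fibroblasts. It had 585, 629 and 626 normalized counts in the controls, replicates 1 to 3, and 1157, 982 and 1223 in the knockouts. Every knockout library lay far above the narrow range of the controls. The log2 fold change was 0.87 ± 0.13 (SE), a 1.83-fold higher level (DESeq2 adjusted p = 3.06e-09). It was past the threshold in all 11 alternative fits, with adjusted p-values from 4.26e-12 to 0.0343. Exons of Pdgfra overlap 2 annotated genes on the opposite strand and 1 microRNA gene on its own strand, and the strand setting of the counting is not given, so its count is uncertain to that extent. Pdgfrb, the sister receptor carried by pericytes and stellate cells, was at 4330 to 4395 normalized counts in controls and 4635 to 4867 in knockouts, with a log2 fold change of 0.13 with an SE of 0.07 (DESeq2 adjusted p = 0.448).

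Among the other receptor, surface and cytoskeletal genes none passed. Vim, the intermediate filament protein of mesenchymal cells, had 5338, 6546 and 4909.5 normalized counts in controls and 6240.1, 6296 and 6808 in knockouts. The groups overlapped, because control replicate 2 lay above knockout replicates 1 and 2, and the log2 fold change was 0.20 ± 0.11 (DESeq2 adjusted p = 0.484). Without control replicate 2 Vim passed, at 0.33 (adjusted p = 0.0117, against 0.0117 to 0.89 over the 11 alternatives). S100a6, a calcium-binding protein, showed a log2 fold change of 0.35 (DESeq2 adjusted p = 0.116) and Gsn one of 0.14 (adjusted p = 0.547), each with no overlap between the groups. With 1 library left out, that of S100a6 ran from 0.27 to 0.40 and that of Gsn from 0.07 (without control replicate 3) to 0.19. Pi16, which marks a fibroblast subset of the adventitia, was at 177, 188 and 143 normalized counts in controls and 111, 138 and 132 in knockouts, the most negative log2 fold change of the 40 at -0.42 ± 0.24 (DESeq2 adjusted p = 0.532).

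Of the 6 small leucine-rich proteoglycans, 2 rose, Dcn and Fmod. Dcn (ENSMUSG00000019929, chromosome 10, 97479609 to 97518143, plus strand) encodes decorin, which binds collagen fibrils. It had 4912, 5388 and 4256 normalized counts in controls and 6666, 6440.5 and 6859 in knockouts. The lowest knockout lay above the highest control, and the log2 fold change was 0.46 ± 0.10 (SE, DESeq2 adjusted p = 0.000577), or 1.37-fold. Fmod (ENSMUSG00000041559, chromosome 1, 134037254 to 134048277, plus strand) encodes fibromodulin, which also binds collagen. It had 113, 65.3 and 84.9 normalized counts in controls and 251, 169 and 174 in knockouts, a log2 fold change of 1.18 ± 0.29 (DESeq2 adjusted p = 0.0063) and the highest of the 40. Knockout replicate 1 was the highest library for Fmod. Without knockout replicate 1 its log2 fold change was 0.97 (adjusted p = 0.215) and without control replicate 2 it was 1.00 (adjusted p = 0.0787), within a range of 0.00181 to 0.215 over the 11 alternatives.

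The other 4 proteoglycans did not pass. Lum, which regulates fibril spacing, showed a log2 fold change of 0.33 and Bgn, on the X chromosome, one of 0.32 (DESeq2 adjusted p = 0.319 and 0.0741), both with no overlap between the groups. Bgn passed without control replicate 2, at 0.40 (adjusted p = 0.0335), and without control replicate 3, at a smaller 0.21 (adjusted p = 0.0270). Lum did not pass in any alternative (adjusted p = 0.197 to 0.788), and without control replicate 3 its log2 fold change was 0.18. Ogn lay lower in every knockout library, at 247 to 299 normalized counts against 321 to 352 in controls, with a log2 fold change of -0.27 (DESeq2 adjusted p = 0.588). Aspn was at 1198 to 1249 normalized counts in controls and 976 to 1331 in knockouts, with a 95% confidence interval of the log2 fold change from -0.30 to 0.21.

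Of the 8 elastic fibre and microfibril genes, 2 rose, Fbln1 and Fbn2. Fbln1 (ENSMUSG00000006369, chromosome 15, 85205949 to 85286535, plus strand) encodes fibulin-1, a glycoprotein of elastic fibres and basement membranes. It had 1281, 1398 and 1057 normalized counts in controls and 2014, 1680.0 and 2014 in knockouts, with no overlap, and the log2 fold change was 0.61 with an SE of 0.13 (DESeq2 adjusted p = 0.000564), or 1.53-fold. Fbn2 (ENSMUSG00000024598, chromosome 18, 58008623 to 58210487, minus strand) encodes the fibrillin most abundant in developing tissue. It had 266, 363 and 342 normalized counts in controls and 471, 533 and 559 in knockouts, a log2 fold change of 0.69 ± 0.17 (DESeq2 adjusted p = 0.00561). Fbn2 was not past the threshold without knockout replicate 2 (0.67, adjusted p = 0.0557) or without knockout replicate 3 (0.63, adjusted p = 0.0945), within 0.00426 to 0.21 over the 11 alternatives. An annotated gene overlaps its exons on the opposite strand.

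Fbn1, the main fibrillin of adult tissue, had 3269, 3266 and 2089 normalized counts in controls and 3691, 4028 and 4149 in knockouts. Its control replicate 3 was far below the other 2 controls. The log2 fold change was 0.46 ± 0.15 (DESeq2 adjusted p = 0.0797), and without that library Fbn1 passed with a smaller log2 fold change of 0.28 (adjusted p = 0.0142, in a range of 0.0142 to 0.412 over the fits that left out 1 library). The elastin gene Eln, with a log2 fold change of 0.09, Fbln2 (0.09), Fbln5 (0.08), Mfap4 (-0.10) and Mfap5 (0.16) had DESeq2 adjusted p-values from 0.847 to 0.943. Without control replicate 3, Eln passed as well, at 0.24 (adjusted p = 0.0359). The intervals of these 5 were not equally narrow: 95% confidence limits ran from -0.10 to 0.26 for Fbln5 and from -0.48 to 0.79 for Mfap5. With 1 library left out, the log2 fold change of Mfap4 ran from -0.28 (without control replicate 3) to 0.12 (without control replicate 2) and that of Mfap5 from -0.08 (without knockout replicate 3) to 0.46 (without control replicate 2).

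**Figure D3:**
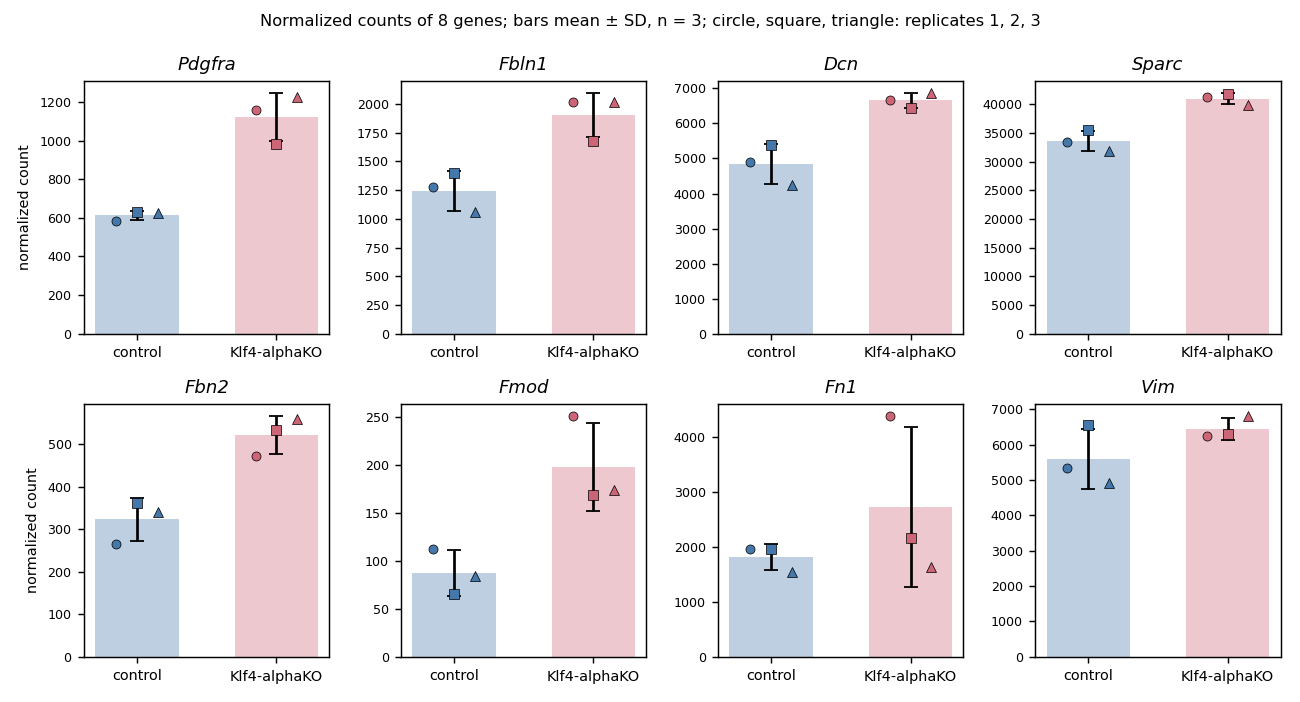
Normalized counts of the 6 genes that rose and of Fn1 and Vim, which did not pass, with bars for the mean, error bars for the SD (n = 3 per group) and circle, square and triangle for replicates 1, 2 and 3. The groups are apart in the first 6 panels, while the Fn1 bar is raised by knockout replicate 1 alone, at 4376.

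Of the 8 adhesive and matricellular genes, 1 rose, Sparc. Sparc (ENSMUSG00000018593, chromosome 11, 55394500 to 55423183, minus strand) had 33337, 35508 and 31897 normalized counts in controls and 41163.5, 41787 and 39872 in knockouts. Each group was narrow, and a log2 fold change of 0.29 ± 0.07 (SE), or 1.22-fold, was past the threshold (DESeq2 adjusted p = 0.00362). Without knockout replicate 1 it was 0.28 (adjusted p = 0.0892, with 3.57e-05 to 0.238 over the 11 alternatives).

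Fn1, which encodes fibronectin, had 1952, 1966 and 1547 normalized counts in controls and 4376, 2162 and 1635 in knockouts. Only knockout replicate 1 was high, and knockout replicate 3 lay inside the range of the controls. The log2 fold change was 0.58 ± 0.46 (DESeq2 adjusted p = 0.733), and without knockout replicate 1 it was 0.06 (adjusted p = 0.999, with 0.455 to 0.999 over the 11 alternatives). Plasma fibronectin is made by hepatocytes, and 7 hepatocyte genes (Alb, Apoa1, Apob, Fga, Fgb, Fgg and Ahsg) summed to 97646 normalized counts in knockout replicate 1, 3331 in knockout replicate 2, 261 in knockout replicate 3 and 194 to 372 in controls. DESeq2 gave an adjusted p to 3 of these 7 (Apoa1, Apob and Ahsg), which passed, and none to the other 4, while none passed in edgeR. Fga and Fgg were at 0 in at least 1 library, and their part in the Fn1 value was not tested. Exons of Fn1 overlap Apol7d on the opposite strand.

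The remaining glycoprotein genes did not pass. Log2 fold changes were 0.22 for Thbs1, an anti-angiogenic glycoprotein, 0.27 for Tnc, 0.21 for the periostin gene Postn, 0.09 for the proteoglycan versican, Vcan, 0.07 for the dermatopontin gene Dpt and -0.08 for Thbs2 (DESeq2 adjusted p from 0.383 to 0.955). Postn and Vcan were low in control replicate 3, at 1451 and 535 normalized counts against 2424 or more and 1073 or more in the other controls. Without that library their log2 fold changes turned to -0.04 and -0.18. Without control replicate 2 that of Thbs2 turned to 0.13, and without control replicate 3 that of Dpt fell just below 0. With 1 library left out, the log2 fold change of Thbs1 ran from 0.13 to 0.32 and that of Tnc from 0.16 to 0.43. In all 6 of these genes the groups overlapped.

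None of the 3 basement membrane genes passed in DESeq2 or in edgeR, and 2 had an unadjusted p under 0.05 in DESeq2. Lama2, the laminin chain of muscle and mesenchymal basement membranes, had 3016, 2445 and 1979.5 normalized counts in controls and 3363, 3113.5 and 3553 in knockouts, a log2 fold change of 0.43 ± 0.14 (DESeq2 adjusted p = 0.0706). The groups did not overlap, and Lama2 passed without control replicate 1 (0.59, adjusted p = 0.000445, with 0.000445 to 0.421 over the 11 alternatives). Nid1, which links laminin to type IV collagen, showed a log2 fold change of 0.19 (adjusted p = 0.299), and Lamb1 one of 0.10 (adjusted p = 0.72).

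None of the 5 collagen processing and cross-linking genes passed in DESeq2 or in edgeR, although 2 had an unadjusted p under 0.05 in DESeq2. Pcolce, which speeds the removal of procollagen propeptides, came nearest. It had 1319, 1650.3 and 1099 normalized counts in controls and 1871, 1729 and 2044 in knockouts, with a log2 fold change of 0.47 ± 0.15 (DESeq2 adjusted p = 0.0537). The call changed with the low-count filter, at 0.0441 without a filter and 0.0497 with the stricter one, and without control replicate 2 it passed at a log2 fold change of 0.64 (adjusted p = 0.000356). Over the 11 alternatives its adjusted p ran from 0.000356 to 0.382. Exons of Pcolce overlap Fbxo24 on the same strand and another gene on the opposite strand. Serpinh1, the collagen chaperone HSP47, showed a log2 fold change of 0.25 (adjusted p = 0.112) and passed without control replicate 2, at 0.31 (adjusted p = 0.0357). The lysyl oxidases Lox, Loxl1 and Loxl2 had 0.30, 0.03 and -0.02 (adjusted p = 0.477, 0.976 and 0.982). With 1 library left out, the log2 fold change of Lox ran from 0.18 to 0.40.

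The 5 protease and inhibitor genes likewise held 0 calls in DESeq2 and in edgeR, with 2 at an unadjusted p under 0.05 in DESeq2. Timp1, the inducible inhibitor of matrix metalloproteinases and an X-linked gene, had 75.4, 106 and 57.3 normalized counts in controls and 137, 113 and 171 in knockouts. The groups did not overlap, but the log2 fold change of 0.82 had an SE of 0.32 (DESeq2 adjusted p = 0.194). Timp2 and Timp3, at -0.04 and 0.12, had adjusted p-values of 0.948 and 0.689. With 1 library left out, the log2 fold change of Timp3 ran from 0.05 (without control replicate 2) to 0.17. The gelatinase gene Mmp2 and the membrane-bound Mmp14, which activates it, had 0.29 and 0.24 (adjusted p = 0.214 and 0.546), and without control replicate 2 they passed, at 0.39 and 0.41 (adjusted p = 0.0441 and 0.0212).

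**Figure D4:**
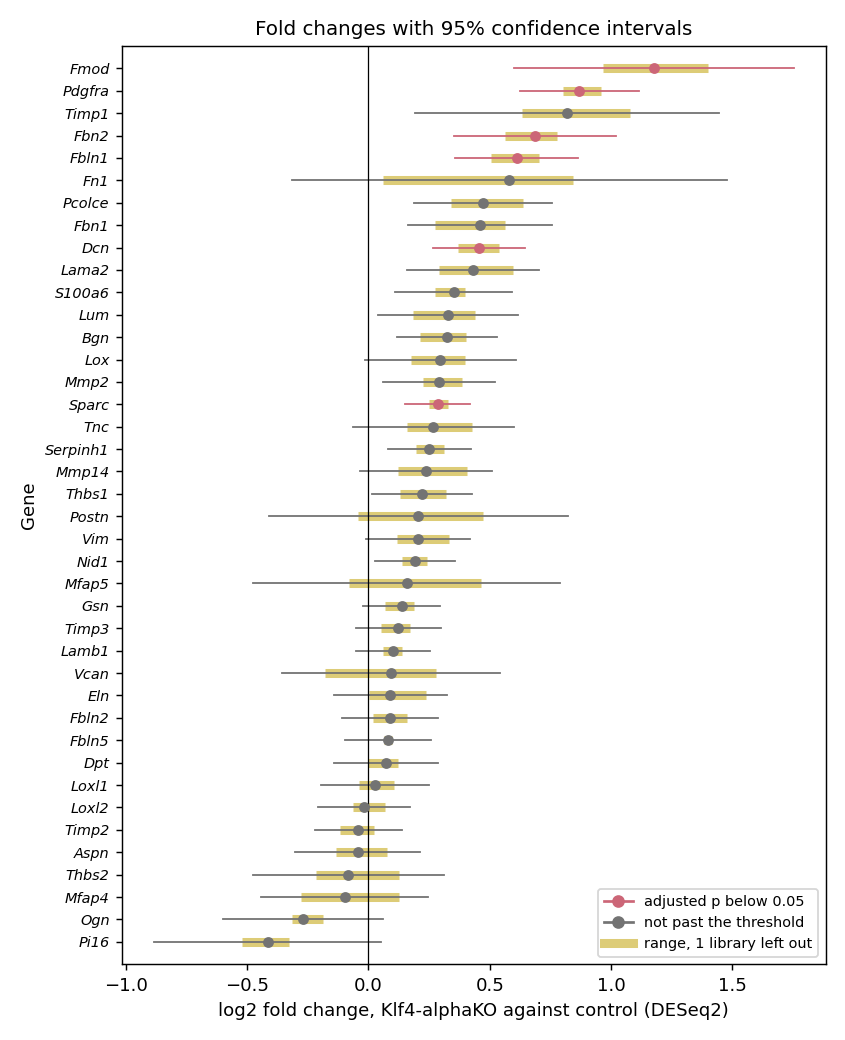
Log2 fold change of knockout against control for the 40 genes (points, DESeq2), with 95% confidence intervals as thin lines and the range over the 6 fits that each left out 1 library as yellow bars. Red marks the 6 genes past the threshold. Fn1 has the widest yellow bar, from 0.06 to 0.84, and Ogn and Pi16 lie lowest, at -0.27 and -0.42.

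In the 6 fits that each left out 1 library, 0 of the 40 genes were called lower. The direction turned in at least 1 of them for 10 genes, none of which passed in any alternative (Aspn, Mfap4, Mfap5, Postn, Thbs2, Vcan, Dpt, Loxl1, Loxl2 and Timp2). Dcn, Fbln1 and Pdgfra passed in all 6 of these fits, and 15 of the 40 genes passed in at least 1. Over the table, 153 (without knockout replicate 1) to 952 genes (without control replicate 3) passed in a single fit. The share of all genes that passed in all 6 or in at least 1 was not counted. In edgeR the adjusted p was 0.16 for Dcn, 0.172 for Fbln1, 0.21 for Fmod and Fbn2 and 0.238 for Sparc, against 0.0343 for Pdgfra.

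To show the regulatory sequence at genes that rose together, the promoter windows of the 4 with the lowest adjusted p-values among those with an entry are printed, from 250 bases before to 50 after the RefSeq start on the gene's strand (GRCm38.p6). Capitals mark CACCC or its reverse complement GGGTG, the short box known to be bound by Krüppel-like factors, the family of KLF4. Of the 40 genes, 28 had a window. The windows are chr5:75152001-75152300 (plus) for Pdgfra, chr15:85205699-85205998 (plus) for Fbln1, chr11:55420031-55420330 (minus) for Sparc and chr1:134037004-134037303 (plus) for Fmod.
Pdgfra: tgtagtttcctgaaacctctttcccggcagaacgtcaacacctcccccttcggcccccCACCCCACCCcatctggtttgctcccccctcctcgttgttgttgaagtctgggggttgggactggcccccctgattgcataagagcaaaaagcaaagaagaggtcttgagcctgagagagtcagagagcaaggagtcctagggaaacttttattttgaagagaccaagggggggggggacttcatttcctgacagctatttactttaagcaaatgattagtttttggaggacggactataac
Fbln1: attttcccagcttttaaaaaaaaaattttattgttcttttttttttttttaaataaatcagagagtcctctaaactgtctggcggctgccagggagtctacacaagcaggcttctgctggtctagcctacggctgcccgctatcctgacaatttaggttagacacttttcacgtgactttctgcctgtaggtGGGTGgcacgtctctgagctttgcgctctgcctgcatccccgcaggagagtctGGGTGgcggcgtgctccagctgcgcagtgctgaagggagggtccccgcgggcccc
Sparc: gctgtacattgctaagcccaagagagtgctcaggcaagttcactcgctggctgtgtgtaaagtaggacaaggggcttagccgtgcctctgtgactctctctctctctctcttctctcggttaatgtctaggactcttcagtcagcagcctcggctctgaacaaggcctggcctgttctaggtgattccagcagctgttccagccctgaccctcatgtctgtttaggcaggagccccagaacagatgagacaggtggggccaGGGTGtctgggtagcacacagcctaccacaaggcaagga
Fmod: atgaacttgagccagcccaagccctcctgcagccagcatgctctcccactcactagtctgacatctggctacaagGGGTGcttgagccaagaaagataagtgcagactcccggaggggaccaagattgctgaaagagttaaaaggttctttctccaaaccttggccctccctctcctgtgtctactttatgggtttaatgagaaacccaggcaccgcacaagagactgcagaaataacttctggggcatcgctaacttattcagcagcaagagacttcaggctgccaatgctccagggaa

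The RefSeq start behind the Sparc window lies 3103 bases inside the GENCODE gene, and Fbln1 has 2 windows, of which the one at the gene start is shown. On both strands, CACCC was found in all 4 windows and in 24 of the 28 (85.7%), against 57.5% of all 32851 windows of the table. The GC box GGGCGG was found in 0 of the 4 and in 57.1% of the 28, against 35.7% of all. The SMAD-related CAGAC was found in all 4 and in 42.9% of the 28, against 49.6% of all, TATAAA in 25.0% against 13.6%, the TEAD motif GGAATG in 10.7% against 14.7%, and the AP-1 motif TGANTCA in 0 of the 28 against 7.81%. The median GC content was 55.7% in the 28 windows and 52.7% in all. Matches are a description of these letters in this window, and no motif searched is contained in another. Binding of KLF4 to these windows, and any part of it in the change of the matrix genes, was not tested.

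The 40 genes were set beside other matrix and fibroblast genes. Of 45 further non-collagen matrix genes, 44 of them given an adjusted p, 4 rose and 0 fell in DESeq2 (10 at an unadjusted p under 0.05, none past the threshold in edgeR). These were Prelp, a leucine-rich proteoglycan (log2 fold change 0.49), Adamts2, which removes procollagen propeptides (0.52), the collagen-degrading protease gene Ctsk (0.86) and Ecm1 (0.37), with DESeq2 adjusted p-values of 0.000278, 0.00257, 0.00136 and 0.0314. Their list had a median log2 fold change of 0.08. Of 15 collagen genes, 9 rose in DESeq2 and 3 were past the threshold in edgeR, with a list median of 0.47. Of 20 further fibroblast and stellate genes, 16 were given an adjusted p in DESeq2 and 2 rose. Those were Ly6a and Ly6c1, with log2 fold changes of 0.50 and 0.47 (DESeq2 adjusted p = 0.000152 and 9.19e-05, edgeR adjusted p = 0.110 and 0.0803), and the list median was -0.01. Both of these surface proteins are also found on endothelial cells. None of 13 TGF-beta ligands, receptors and early targets passed in DESeq2 or edgeR, with 2 at an unadjusted p under 0.05 in DESeq2 and a list median of 0.04.

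Marker lists of other cells were measured in the same libraries. The 7 acinar genes (Cpa1, Cel, Prss2, Pnlip, Ctrb1, Cela1 and Cpb1), of the exocrine tissue around the islets, were higher in every knockout than in every control. Among the controls, replicate 2 had the highest sum, none of the 7 was at 0 in any library, and their log2 fold changes of 0.98 to 1.26 did not pass in DESeq2 or in edgeR (7 of 7 at an unadjusted p under 0.05 in DESeq2). Of 6 defining genes of the islet hormone cells, 1 fell: Gcg, the glucagon gene of alpha cells, had 3856330 to 5636520 normalized counts in controls and 2855550 to 3528730 in knockouts. Its log2 fold change was -0.56 with an SE of 0.13 (adjusted p = 0.00332 in DESeq2 and 0.402 in edgeR), and it was not past the threshold without knockout replicate 1 (-0.50, adjusted p = 0.144) or without knockout replicate 3 (-0.52, adjusted p = 0.0826). Its part in the change of the matrix genes was not tested. Of 8 macrophage genes, 3 rose in DESeq2 (Cd68, C1qb and Mrc1) and none passed in edgeR, with 5 at an unadjusted p under 0.05 in DESeq2. Their median log2 fold change was 0.31, and 7 of the 8 were above 0, C1qa being the exception at -0.27. The summed level was 10592 to 11669 normalized counts in controls and 10592 to 12625 in knockouts, while the mean log2 level was higher in every knockout. Endothelial genes had 0 of 8 past the threshold in DESeq2 and in edgeR (1 at an unadjusted p under 0.05), with all 8 log2 fold changes above 0, a median of 0.12, Esm1 alone without overlap between the groups, and sums of 92666 to 110873 in controls and 103656 to 117938 in knockouts.

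Of 8 pericyte and smooth muscle genes, none passed in DESeq2, which gave 7 an adjusted p, or in edgeR (3 at an unadjusted p under 0.05 in DESeq2). Their summed level was 48435 to 52987 normalized counts in controls and 44482 to 50190.4 in knockouts, and Acta2, Myh11 and Mcam lay lower in every knockout library, with log2 fold changes of -0.29, -0.25 and -0.16. The mean log2 level of the 8 was 10.98 to 11.03 in controls and 10.74 to 10.97 in knockouts, with no overlap, although the sums overlapped. Schwann cell genes had 0 of 7 past the threshold in either test, and 0 at an unadjusted p under 0.05 in DESeq2. Mesothelial genes had 0 of 6 in either test, but DESeq2 gave an adjusted p to only 2 of them. In DESeq2 1 had an unadjusted p under 0.05, and Wt1, Lrrn4 and Upk1b were at 0 in some libraries. Msln had 6543 to 12962 normalized counts in controls and 4751 to 6603 in knockouts, a log2 fold change of -0.74 (DESeq2 adjusted p = 0.396), while 3 of the 6 genes were above 0. Of the adipocyte genes, Lep and Cfd had 0 counts in every library and Adipoq and Plin1 had 0 in some, while Fabp4, also an endothelial gene, rose by 0.46 on the log2 scale (DESeq2 adjusted p = 0.0118, edgeR 0.231). Of 6 duct genes, Krt7 and Muc1 rose in DESeq2 (adjusted p = 0.0444 and 0.001) and did not pass in edgeR (0.315 and 0.186). The part of the macrophage RNA in the change of the matrix genes was not tested, nor was any difference between lists.

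**Figure D5:**
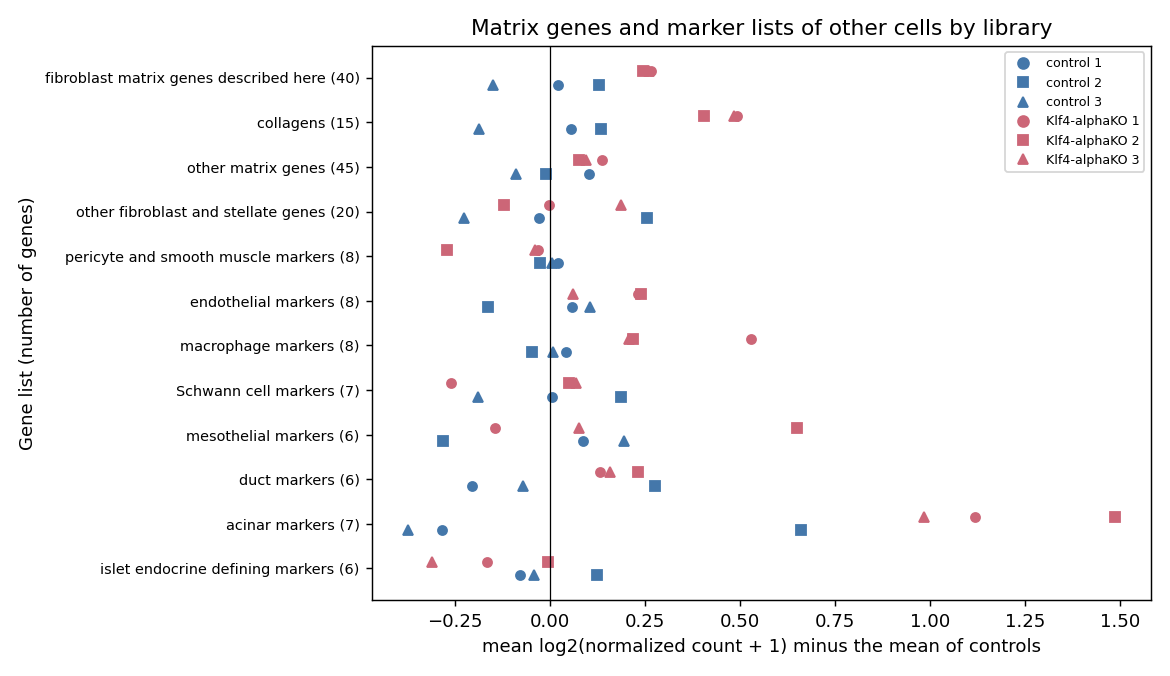
Mean of log2(normalized count + 1) over each gene list, minus the mean of the 3 controls, with 1 point per library (blue control, red Klf4-alphaKO, shapes for replicates) and the number of genes in parentheses. The fibroblast matrix genes, collagens, macrophage and acinar lists have every knockout to the right of every control, the pericyte and smooth muscle list has every knockout to the left, and of the lists drawn, which leave out the hepatocyte, adipocyte and TGF-beta genes, the acinar list spreads furthest, with control replicate 2 apart from the other controls.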

How the data were processed

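Reads were counted per gene by the authors, and the deposited table holds raw counts without normalization. Per the submitters' processing notes, FastQC, STAR, featureCounts, DESeq2 and mm10 were used, with no versions or settings, and the strand setting and annotation are not given in the sources used here. All 55536 gene identifiers matched GENCODE M21 (GRCm38), which gave coordinates, exon lengths and overlaps. Of counts from 1 to 20, 85.0% were even, against 57.5% of counts from 1001 to 2000. Counting both mates of a read pair would give such even counts, but the counting settings are not given in the sources used here, so a count may stand for 1 mate and not for a fragment; what this does to counting error was not tested.

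As in the series' design text, DESeq2 1.42.0 (R 4.3.3) was run on 3 against 3 libraries without a batch term, on genes with at least 10 counts in total, with size factors, unshrunken log2 fold changes and a Benjamini-Hochberg adjusted p under 0.05 over all genes. Alternatives were edgeR 4.0.16 quasi-likelihood with TMM, TMM factors in DESeq2, no filter, at least 10 counts in at least 3 libraries, the replicate number as a block and each library left out, and for list means a pseudocount of 10. Scripts were tested on simulated data. As a check for duplicate libraries, replicate pairs were compared and differed by more than sampling noise (chi-square 40.0 to 120.2 times its degrees of freedom over 15811 genes). Genes and lists were chosen with earlier results of these data known, and the hepatocyte genes after seeing the data. All 40 genes are accounted for. Those past the threshold, and Dcn, Pdgfra, Fn1, Sparc and Vim whatever their result, are given in every library; the values by library of Pi16, Fbn1, Lama2, Pcolce and Timp1 were added after they were seen. In other lists up to 5 genes past the threshold are named, for the collagens only their count, and further genes there were named after their values were seen. No part of the table's 6 columns was left out (0 unused).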

Additional observations from a re-analysis of the deposited data

How the results depend on the processing

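The test and single libraries moved the counts most. In edgeR 29 genes of the whole table were past the threshold in place of 389, and 1 of the 40 matrix genes in place of 6; the cause was not tested. Over the 6 fits that each left out 1 library, the count over the table ran from 153 (without knockout replicate 1) to 952 (without control replicate 3), the count of matrix genes from 4 to 11, their median log2 fold change from 0.19 to 0.33 (highest without control replicate 2) and the difference of their mean log2 level from 0.18 to 0.32 against 0.26. TMM factors, no filter and the stricter filter gave 6, 7 and 7 matrix genes, Pcolce being the seventh. The difference of mean levels was 0.257 in the main setting, 0.260 with TMM scaling and 0.252 with a pseudocount of 10. Groups without overlap were found for 21, 20 and 19 genes when scaled by size factors, by TMM and by the library total.

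Among the results for the 6 genes past the threshold, for which only a loss of the call can be counted, and for Fn1 and Vim, 77 of 88 stayed on the same side of 0 and of the threshold, 10 lost the call and 1, Vim, gained it; none changed direction. Of the 10, 5 came from edgeR and the others, given above, from Fmod, Fbn2 and Sparc with 1 library left out.

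With the replicate number as a block, 405 genes of the table and 8 of the 40 were past the threshold, Fbn1 and Lama2 being added, and the median log2 fold change of the 40 was 0.23. Same-numbered libraries did not deviate together: correlations of their deviations from the group means were -0.048, -0.059 and 0.010 over 15811 genes, and 1 of the 6 libraries correlated best with its own number. The numbers were therefore not treated as pairs. The lowest counts of Mfap5 and Timp1 were 84 and 54; how depth and the spread between libraries bear on their missing calls was not tested.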

Other observations

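Within each library, the log2 ratio of Pdgfra to Pdgfrb was -2.91, -2.79 and -2.79 in control replicates 1 to 3 and -2.29 to -1.99 in the knockouts, so every knockout lay above every control. The ratio of Dcn to Lum, at 2.00 to 2.22 in controls and 2.12 to 2.32 in knockouts, overlapped, as did that of Fbn2 to Fbn1, at -3.62 to -2.61 and -2.97 to -2.89. That of Sparc to Nid1, at 1.65 to 1.74 in controls and 1.72 to 1.86 in knockouts, overlapped as well. These ratios were chosen after the values were seen and were not tested.

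Knockout libraries were closer to each other than controls, for the matrix genes as for genes in general: the highest knockout value was within 1.2-fold of the lowest for 27 of the 40 genes, and the highest control within 1.2-fold of the lowest for 17, against 67.4% and 53.0% of the 15811 genes with a mean normalized count of 50 or more. Over all 6 libraries the lowest value belonged to control replicate 3 for 24 of the 40 genes (20.6% of the 15811), and the highest to knockout replicate 3 for 16 (14.5%), to knockout replicate 2 for 10 (13.3%) and to knockout replicate 1 for 5 (13.7%). Klf4 was also lowest in control replicate 3, at 2015 normalized counts.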
